A study of Hordeum vulgare with 2 samples.

Results

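Cleavage sites were listed for 34 small RNAs whose names begin with PC-, newly predicted barley small RNAs without a microRNA family number, among 878 small RNA names in 2 degradome lists of barley shoots. They were taken by name alone: every record of either list whose small RNA name begins with PC- was kept. All 34 names carry 3p, the label of the 3′ arm of a hairpin, and 0 carry 5p, so the arms could not be compared. The ZD9 list held 266 PC records with values out of 15544, and the XZ153 list held 691 out of 40424. The labels explain neither the letters PC nor the numbers in the names.

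The libraries came from shoots of the barley cultivars labelled ZD9 and XZ153, 1 library each, in a series on microRNAs of Tibetan wild and cultivated barley under low potassium. Seedlings were grown in solution culture, and at the 2-leaf stage potassium was set at 0.01 mM, the low level, or 1 mM, the control level. The labels do not say which potassium level either library came from, nor which cultivar is the wild one, and no marker check of the shoot tissue was possible from lists of sites. Genotype, treatment and library therefore cannot be told apart, and no test between ZD9 and XZ153 was made.

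A plant microRNA is cut from a hairpin precursor and loaded into an ARGONAUTE protein, which slices transcripts that pair with the microRNA over nearly its whole length. The cut falls between the transcript bases that face bases 10 and 11 of the small RNA, and the 3′ fragment keeps an uncapped 5′ end. Degradome sequencing reads these ends, so a sliced site stands out as reads that begin at 1 position of a transcript. Ends from ordinary mRNA decay are read in the same way, and a predicted small RNA with no site above them has no evidence of slicing from this assay.

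The terms used below are those of CleaveLand, the program that made the lists. The Allen score is a mismatch penalty, lower for better pairing. The minimum free energy ratio compares the duplex with a perfectly paired one, and the lists go down to 0.65. Category 0 is the highest position of its transcript, category 1 a tie for the highest, category 2 a position above the transcript's average read number, category 3 a weaker position with at least 2 reads, and category 4 a single read. The deposited p-value belongs to 1 record in 1 library and is not adjusted. Support here means category 0, 1 or 2 together with a p-value no higher than 0.05. A site here means 1 name, 1 gene and 1 target sequence, with isoforms merged.

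Many of the 34 names overlapped in sequence. Linking sequences that share a run of at least 16 bases gave 25 groups, of which 4 held more than 1 name and took in 13 names. The other 21 names stood alone. The 4 groups and the remaining names with a supported site are shown because the results turn on them, each 5′ to 3′ with the seed, bases 2 to 8, in capitals.

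The first group differs only in where the molecule starts and ends.
PC-3p-129407_83: uUUGUUUAuuuugccacgccu
PC-3p-149545_50: uUUGUUUAuuuugccacgcc
PC-3p-149010_50: uUGUUUAUuuugccacgccuu

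The second group holds 5 names.
PC-3p-105755_160: cUAGCACUuugaauuuagguuga
PC-3p-108036_150: cUAGCACUuugaauuuggguuga
PC-3p-160546_39: uAGCACUUugaauuuagguugaau
PC-3p-110678_139: uAAUACUUugaauuuagguugaac
PC-3p-167946_33: uAAUACUUugaauuuagguugaau

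The third group consists of 3 sequences rich in A, and the first listed contains the others.
PC-3p-105838_160: uUAUGAAAauuaugaaaagugga
PC-3p-142242_59: aUGAAAAUuaugaaaagugg
PC-3p-133347_74: gAAAAUUAugaaaagugga

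The last group is a pair shifted by 1 base.
PC-3p-161357_38: uCUGUGCUgacaauuaggacc
PC-3p-161714_38: cUGUGCUGacaauuaggaccc

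The other names with a supported site share no such run with another PC name.
PC-3p-125033_93: cAUCUGCCgaugacuucucgu
PC-3p-139466_63: uCUGGAUAgaaagaguuuugg
PC-3p-183402_25: uUUGGAUUgaagggagucu
PC-3p-108305_148: uUUUUCUAcgacacuuuaaga
PC-3p-111105_137: uGUAGCUCucuaguaaaauuuc
PC-3p-124776_93: gAAGUUUAaugagaacaugug
PC-3p-159499_40: gUAGUUAAuuguuuuugguacuu

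Of the 34 sequences 15 were 21 nt long and 8 were 24 nt long, and the rest had 19, 20, 22 or 23 nt. A 5′ U was present in 20 of them, a base common at the start of plant microRNAs. Their GC content ran from 20.8% to 73.7%, with a median of 38.1%. None was identical to the sequence of a name outside the PC set. One, PC-3p-183402_25, shared its seed with 13 other names, all of the miR159 family, and had a run of 17 bases in common with 3 of them. The other 33 had no seed in common with any of the 844 other names, and their longest common run with one was 6 to 10 bases.

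The number of sites per name was very uneven, as the 6 names with most genes in XZ153 show. The XZ153 values here cover its whole list, which runs on past the end of the ZD9 list. PC-3p-149010_50 had 29 records on 21 genes in ZD9 and 98 on 73 in XZ153. PC-3p-129407_83 had 28 on 19 in ZD9 and 76 on 53 in XZ153, and PC-3p-149545_50 had 24 on 16 in ZD9 and 70 on 47 in XZ153. These are the 3 names of the first sequence group. PC-3p-111057_137 had 38 on 18 in ZD9 and 62 on 47 in XZ153, PC-3p-159499_40 had 6 on 5 in ZD9 and 42 on 27 in XZ153, and PC-3p-125033_93 had 13 on 6 in ZD9 and 24 on 21 in XZ153. The group of PC-3p-129407_83 and its 2 shifted forms alone made up 30.5% of the PC records in ZD9 and 35.3% in XZ153. At the other end, 8 names had no ZD9 record with values. These names had 1 to 20 records in the whole XZ153 list and at most 3 in the range of transcript IDs that both lists cover. One of them, PC-3p-153_88304, had 7 records on 3 genes in XZ153, 5 in category 4 and 2 in category 2. Its lowest p-value was 0.430, and it had no supported site. Apart from the 12 names chosen by their number of genes, their reads or a supported site, the other 22, PC-3p-153_88304 among them, held 87 records in ZD9 and 211 in XZ153, with 0 to 14 per name in ZD9 and 1 to 25 in XZ153.

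The ZD9 list stops early: its records with values end at transcript HORVU2Hr1G036110.5, and a further 29 PC records name a site without values. All 29 occur in the XZ153 list under the same name. Counts were therefore compared over IDs up to that transcript, where ZD9 had 266 PC records and XZ153 136, a ratio of 1.96 (exact 95% interval 1.58 to 2.42, counting error only). With isoforms merged it was 145 sites against 91, a ratio of 1.59 (1.22 to 2.09). The ratio over all other names was 1.86 by record and 1.51 by merged site, both inside the intervals of the PC names. Of the 34 names 21 had more records in ZD9, 6 had fewer and 7 had equal numbers. PC-3p-111057_137 had the widest gap, 38 records in ZD9 against 9 in XZ153, and PC-3p-108305_148 the widest the other way, 0 in ZD9 against 3 in XZ153. The library depths are unknown and there is no replicate, so library and genotype cannot be told apart in this ratio.

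PC records had higher median mismatch penalties than those of other names. The median Allen score was 9.5 in ZD9, with quartiles of 8 and 11.4, against 8.5 for all other names. In XZ153 the median was 10, with quartiles of 8 and 12, against 8.5. A score of at most 4 was reached by 2 of 266 records in ZD9, or 0.752% (exact 95% interval 0.0912 to 2.69), against 3.73% for all other names. In XZ153 it was reached by 6 of 691, or 0.868% (0.319 to 1.88), against 3.79%. The free energy ratio was below 0.7 for 80.1% of PC records in ZD9 and 78.0% in XZ153, against 67.3% and 66.2% for all other names. The PC-3p-129407_83 group weighs on these values. It held 30.5% of PC records in ZD9 and 35.3% in XZ153, with median Allen scores of 11 and 10.5. Medians of the PC records without it were not taken. These differences between PC and all other names were not tested, because names of 1 sequence group share sites and isoforms repeat them.

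Medians differed between names. In XZ153 the median Allen score ran from 6 for PC-3p-147536_52 and PC-3p-168642_33 to 14 for PC-3p-172798_30, and the median free energy ratio over names ran from 0.656 to 0.716. PC-3p-168642_33 rested on 1 gene in both libraries, HORVU2Hr1G022920, whose site was listed on 14 isoforms in ZD9 with 1 or 2 reads each and on 4 isoforms in XZ153. PC-3p-183402_25, the miR159-like name, had a median of 6.5 in ZD9 and 9.5 in XZ153. The best-paired PC site of either list belonged to PC-3p-139466_63, with a score of 3.5 on HORVU4Hr1G021950.

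Pairing was counted along the small RNA at each merged site, without regard to bulges on the transcript side. The seed was paired throughout at 52 of 145 PC sites in ZD9, or 35.9% (28.1 to 44.2), and at 170 of 460 in XZ153, or 37.0% (32.5 to 41.5). For all other names it was 43.9% and 42.9%. Bases 9 to 11, which flank the cut, were all paired at 69.7% (61.5 to 77.0) of PC sites in ZD9 and 68.9% (64.5 to 73.1) in XZ153, against 76.1% in both lists for all other names. Seed and centre were paired together, with every base from 2 to 11 paired, at 18.6% (12.6 to 25.9) of PC sites in ZD9 and 26.3% (22.3 to 30.6) in XZ153, against 30.6% and 29.9%. A site without this pairing is still listed by the program, and most sites of PC names and of all other names were of this kind. At base 18 PC sites were paired more often. Base 18 was paired at 93.1% of PC sites in ZD9 and 95.9% in XZ153, against 68.1% and 68.0% for all other names. Small RNAs of all lengths were counted together, so base 18 does not lie equally far from the 3′ end in each. Length and pairing therefore cannot be told apart in this contrast. The median number of unpaired small RNA bases was 3 for PC names and for all other names in both lists.

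Most PC records were single reads. Category 0 held 5 of 266 PC records in ZD9, or 1.88% (0.613 to 4.33), where the share over all names was 1.7%. In XZ153 it held 12 of 691, or 1.74% (0.90 to 3.01), where the share over all names was 1.49%, and 3 of 136 in the range of IDs that both lists cover, where it was 1.4%. Category 4 held 71.1% of PC records in ZD9 and 78.3% in XZ153, against 66.1% and 73.3% for all other names. The 5 category 0 records of ZD9 belonged to 5 names and the 12 of XZ153 to 7, 4 of them to PC-3p-159499_40. Category 0 or 1 held 3 of 55 ZD9 records with an Allen score of at most 7, or 5.45%, and 8 of 211 above it, or 3.79%. In XZ153 it held 9 of 102, or 8.82% (4.11 to 16.1), and 20 of 589, or 3.40% (2.09 to 5.20). The exact intervals overlap in both libraries, and no test was made. The deposited p-value was above 0.9 for 82.7% of PC records in ZD9 and 77.4% in XZ153, against 92.4% and 86.1% for all other names. It was below 0.5 for 8.27% of PC records in ZD9 and 13.6% in XZ153, against 3.33% and 6.01%.

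Supported records were few. In ZD9 1 of 266 PC records was supported, where the share over all names was 0.695%. In XZ153 8 of 691 were supported, or 1.16% (0.501 to 2.27), where the share over all names was 0.675%. By pairs of name and gene these were 1 of 144 in ZD9 and 8 of 460 in XZ153, where 0.517% and 0.716% of all pairs were supported. Over the range of IDs that both lists cover, XZ153 had 3 of 136 records, or 2.21% (0.457 to 6.31), and 3 of 91 pairs, or 3.30% (0.685 to 9.33). The shares over all names were 0.91% and 1.13% there, inside both intervals. In the whole XZ153 list the interval by record includes the share over all names. The share by pair, 1.74% (0.754 to 3.40), has an interval that lies narrowly above the 0.716% of all pairs. The intervals cover counting error only and no test was made, and a single record in ZD9 allows no comparison. The 9 supported records belonged to 8 names. Their transcripts are identified here by ID and position only. No annotation of these IDs was used, so the genes are unnamed and whether a site lies in coding sequence or in an untranslated region is not given.

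The supported site in ZD9 belonged to PC-3p-125033_93 on HORVU0Hr1G016920. The target is shown with the base at the listed cut, the first base of the 3′ fragment, in capitals.
HORVU0Hr1G016920 target: ccgagaagucgUcggaaucagaug
Isoform 5 held 3 reads at position 2600, in category 2 with a p-value of 0.00248, the lowest of any PC record. Isoforms 4 and 6 held 1 read each, in category 4, with p-values of 0.0167 and 0.0412. XZ153 listed the cut on isoform 6 alone, at position 2604 in category 4 with a p-value of 0.0213. This was the only PC record with a p-value no higher than 0.05 in both lists. The duplex had a free energy ratio of 0.815, the highest of the PC records in ZD9, its Allen score was 8, and 3 transcript bases bulge between bases 6 and 7 of the small RNA. The low p-value thus belonged to few reads and to a duplex interrupted inside the seed.

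The lowest p-value among PC records of XZ153 belonged to the miR159-like PC-3p-183402_25. Its site on HORVU0Hr1G037740, at position 37 of isoform 1, was category 0 with a p-value of 0.00845, an Allen score of 5 and a free energy ratio of 0.828.
HORVU0Hr1G037740 target: gggcucccuUcccuccaaa
The same 19 bases lie in the targets of 2 other XZ153 records, on HORVU0Hr1G018730 and HORVU6Hr1G009410, and there the name listed was mtr-miR159a.
HORVU0Hr1G018730 and HORVU6Hr1G009410 target: uggggcucccuUcccuccaaa
Those records also had an Allen score of 5 but were category 4, with p-values of 0.144 and 0.140. The miR159 family is a textbook regulator of GAMYB-type transcription factors, and mtr-miR159a and PC-3p-183402_25 share 16 bases from their 5′ ends. The 13 names outside the PC set with this seed had 0 to 32 records each in XZ153. None of these was supported, where the share over all names was 0.675%. The record under the PC name was thus the only supported one with the miR159 seed there, but so few records allow no contrast between the names. ZD9 listed none of these 3 targets, but HORVU6Hr1G009410 lies beyond the end of the ZD9 list.

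Each position was listed under 1 name: 0 positions stood under more than 1 name in either list. A site under a PC name could therefore stand under another name in the other library. Of the ZD9 PC positions 1 was listed so in XZ153, position 2131 of HORVU1Hr1G039790 isoform 3, and of the XZ153 PC positions 0 were listed so among the ZD9 records with values. ZD9 listed it under PC-3p-183402_25 with 5 reads, in category 0, with an Allen score of 6 and a p-value of 0.720. XZ153 listed it under ath-miR159b-3p_2ss17CT19CT in category 4, with an Allen score of 9 and a p-value of 1. Its target is shown for the comparison with the site above.
HORVU1Hr1G039790 target: aguacucccuCcguuccaaa
The other ZD9 isoforms with this target, 12, 14 and 5, held 3, 2 and 2 reads in categories 1, 2 and 2. Isoforms of a gene can share the same reads, so these are not separate counts.

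PC-3p-139466_63 was the 1 name with 2 supported sites, both in XZ153. On HORVU4Hr1G021950 the target pairs with bases 1 to 13 of the small RNA without a break.
HORVU4Hr1G021950 target: cuugagccuuUcuauccaga
Isoform 3 was category 1 at position 1024 with a p-value of 0.0151, and isoforms 9 and 10 were category 4 with p-values of 0.411 and 0.416. This gene lies beyond the end of the ZD9 list. On HORVU0Hr1G002680 the first 3 bases of the small RNA are unpaired and the Allen score was 7.5.
HORVU0Hr1G002680 target: ccgcgagcucuuUcuauccccu
ZD9 listed it on isoform 1 at position 1078, with 2 reads in category 2 and a p-value of 0.132. XZ153 listed it on isoform 3 at position 905, in category 2 with a p-value of 0.0446. The category was the same in both libraries, and the call differed because the p-value lay on either side of the limit. Lower p-values in XZ153 were not particular to this site. Of the 32 PC records at the same position in both lists, 28 had a lower p-value in XZ153 and 2 a higher one. The same name had a category 0 record on HORVU0Hr1G039250 in ZD9, 3 reads at position 2850 of isoform 10 with a p-value of 0.0959. The other 8 ZD9 isoforms of that gene held 1 or 2 reads. There the bases 9 and 10 of the small RNA, at the cut, were unpaired. XZ153 listed the target on 4 isoforms, all in category 4.

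Between the libraries the shifted pair PC-3p-161357_38 and PC-3p-161714_38 met on 1 transcript. ZD9 listed PC-3p-161714_38 at position 1041 of HORVU1Hr1G022810 isoform 1, with 3 reads in category 3, a p-value of 0.340 and an Allen score of 7.5. XZ153 listed PC-3p-161357_38 at position 1042 of the same isoform, in category 2 with a p-value of 0.0129 and an Allen score of 5.5.
HORVU1Hr1G022810 target for PC-3p-161714_38: ugguccugcuGucaagcacgg
HORVU1Hr1G022810 target for PC-3p-161357_38: gguccugcugUcaagcacgga
The names are offset by 1 base and so are the positions. A comparison by name counts each site as missing from the other library, although the duplexes overlap. Within XZ153 the 2 names also stood 1 base apart on HORVU5Hr1G051870 isoform 13, at positions 2436 and 2435, both in category 4. HORVU5Hr1G000320 in XZ153 carried both names and PC-3p-136646_68, with 20 records over 13 isoforms and 0 supported.

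The remaining 4 supported sites were in XZ153, on genes beyond the end of the ZD9 list.
HORVU4Hr1G017550 target, for PC-3p-108305_148: ccuuacaguguCguggugaga
HORVU3Hr1G049120 target, for PC-3p-159499_40: cugugccaaagaaacAauuaacugg
HORVU3Hr1G024390 target, for PC-3p-124776_93: cgcguguucuuGuuuaacuug
HORVU7Hr1G027490 target, for PC-3p-111105_137: gagaaggugcugaGagagcugca
The first was category 0 at position 890 of isoform 38 with a p-value of 0.0103 and an Allen score of 7, and it was the only isoform listed. The second was category 0 at position 1270 of isoform 7 with a p-value of 0.0150, but category 4 on isoform 5 with a p-value of 0.565. The third was category 1 on isoform 6 with a p-value of 0.0185, category 2 on isoform 7 and category 4 on isoform 3. The fourth was category 1 at position 935 of isoform 6 with a p-value of 0.0197. Where several isoforms of a gene were listed, support thus rested on 1 of them at each of these sites. A further 2 PC sites of XZ153 had p-values no higher than 0.05 outside categories 0 to 2: that of PC-3p-125033_93 above and one of PC-3p-144909_56 on HORVU7Hr1G088580, in category 3 with a p-value of 0.0468.

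Reads in ZD9 did not gather at the supported site. The 266 PC records held 496 raw reads in all, 1.42% of the reads listed in ZD9, and 312 when each merged site was counted at its highest isoform. A single read stood at 189 records, 2 reads at 46, 3 to 5 reads at 20 and 6 or more at 11. The mean was 1.86 reads per record, against 2.25 for all other names, and the median was 1 in both.

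The 2 positions with most reads belonged to the first sequence group and had p-values of 1. PC-3p-129407_83 had 32 reads at position 730 of HORVU1Hr1G043910 isoform 1, and PC-3p-149010_50 had 29 reads at the neighbouring position 729, both in category 2 with Allen scores of 10.5 and 10.
HORVU1Hr1G043910 target, position 730: ggguucguggcggaGaugaacggc
XZ153 listed no PC record on this gene. The next highest was the 13 reads of PC-3p-136646_68 on HORVU0Hr1G023890, in category 0. The first sequence group also had HORVU1Hr1G022570, with 12 and 7 reads at positions 626 and 739 of isoforms 1 and 2 under PC-3p-149010_50. One base further on, at positions 627 and 740, 10 and 11 reads stood under PC-3p-129407_83.
HORVU1Hr1G022570 target, positions 627 and 740: aggcucgugguagGaggaacagc
All 4 positions were category 2 in both libraries, and their p-values were between 0.999 and 1. Neighbouring positions under shifted names recurred: 14 ZD9 and 38 XZ153 records of this group lay 1 base from a record of another name of the group. The Allen scores of this group had a median of 11 in ZD9 and 10.5 in XZ153. Its supported records numbered 0 of 81 in ZD9 and 0 of 244 in XZ153, where the shares over all names were 0.695% and 0.675%.

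PC-3p-111057_137 followed them in reads, with 51 over its 38 records in ZD9.
PC-3p-111057_137: uUUGAGGGuucuaguuuugcc
Its median Allen score was 9.5 in ZD9 and 10.5 in XZ153. A single record, on HORVU1Hr1G087900 in ZD9, was category 0, with a p-value of 0.713, and none in either list was supported. It had 2 records in both lists.

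The groups of PC-3p-105755_160 and PC-3p-105838_160 had few sites. The 5 names of the first of these had 9 records with 9 reads in all in ZD9 and 30 records in XZ153, and the 3 names of the other had 1 record with 3 reads in ZD9 and 5 records in XZ153. Neither group had a record in category 0, a supported record or a record in both lists. The shares over all names were 1.7% in ZD9 and 1.49% in XZ153 for category 0, and 0.695% and 0.675% for support. With so few records a count of 0 does not set these groups apart.

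PC-3p-136646_68 held the most reads among PC positions in category 0 of ZD9. Its target on HORVU0Hr1G023890 lies within the first 79 bases of each listed isoform.
PC-3p-136646_68: uGUGCUGAuaacuaggaccca
HORVU0Hr1G023890 target: cggguccuguUuucggcauc
In ZD9 isoforms 9, 8, 7, 12 and 13 held 13, 10, 8, 7 and 5 reads. Isoform 9 was category 0 with a p-value of 0.0506, just above the limit, and the others were category 2 with p-values from 0.583 to 0.613. XZ153 listed all 5 isoforms at the same positions, each in category 2, with p-values from 0.249 to 0.269. It listed the same 20 bases on a second gene as well, HORVU5Hr1G015430. The Allen score was 7, with base 9 unpaired and base 13 bulged.

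Some targets repeated over genes. In ZD9 6 targets lay on more than 1 gene, the widest on 3. In XZ153 2 targets stood out by their number of genes.
PC-3p-129407_83 target: gggcuuggcggaaucagcggg
PC-3p-159499_40 target: aaguaccagaagagcacggagcugc
The PC-3p-129407_83 target lay on 2 genes in ZD9, HORVU0Hr1G011150 with 6 reads and HORVU2Hr1G019240 with 5. On those 2 genes it was category 2 in both libraries. It lay on 10 genes in the whole XZ153 list, but within the range of IDs that both lists cover only HORVU0Hr1G024180 was added. The PC-3p-159499_40 target lay on 8 genes in the whole XZ153 list, of which only HORVU1Hr1G022400 and HORVU1Hr1G058450 lie in that range. The Allen scores of the 2 targets were 9 and 13.5, and neither was supported on any gene. Such repeats mean that the number of genes per name is not the number of different targets.

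Few PC records with values recurred between the libraries, and those with most reads did so most often. The shares below leave out the 29 ZD9 PC records without values, all of which XZ153 listed at the same name, transcript and position. Of the 266 ZD9 records with values 32 were listed so in XZ153. This is 12.03% (8.38 to 16.6) of the ZD9 and 23.5% (16.7 to 31.6) of the XZ153 PC records in the range. For all other names the shares were 18.4% and 34.2%. With isoforms merged 32 of 145 ZD9 sites were also XZ153 sites. By reads, 8.47% (4.92 to 13.4) of PC records with 1 read recurred, 6.52% (1.37 to 17.9) of those with 2 reads, 20% (5.73 to 43.7) of those with 3 to 5 and 9 of 11, or 81.8% (48.2 to 97.7), of those with 6 or more. The 2 that did not recur at 6 or more reads were the neighbouring positions on HORVU1Hr1G043910. The 9 that did lay on HORVU0Hr1G023890, HORVU1Hr1G022570 and HORVU0Hr1G011150. Isoforms and shifted names repeat sites there, so these intervals treat as separate records that are not. All other names gave 9.90%, 19.5%, 37.8% and 74.3%.

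The 32 shared records came from 12 names on 19 genes, and 12 of them belonged to the PC-3p-129407_83 group. The category was the same in both libraries for 25, with 14 in category 4, 10 in category 2 and 1 in category 3 in both. None was category 0 in both. HORVU0Hr1G023890 isoform 9 was the only shared record in category 0 in either list, in ZD9. The 9 shared records with 6 or more reads comprised 4 of HORVU0Hr1G023890, 4 of HORVU1Hr1G022570 and 1 of HORVU0Hr1G011150, and 8 of them were category 2 in both libraries. HORVU2Hr1G005150 isoform 4 carried 3 shared records under 3 names. PC-3p-125033_93 stood at position 289 with 2 reads, PC-3p-149010_50 at position 305 with 3 and PC-3p-149545_50 at position 306 with 4, all in category 3 in ZD9. In XZ153 they were in categories 2, 2 and 4, with p-values from 0.940 to 1. The HORVU0Hr1G016920 site was the only 1 of the 32 with a p-value under the limit in both lists, and it rested on a single read in ZD9 on the shared isoform.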

How the data were processed

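The members and lists were chosen with earlier results of these data known. CleaveLand output was deposited as 1 table per library. Per the file headers, the columns used hold the free energy ratio, the Allen score (a penalty score), the category, the unadjusted p-value and, for ZD9 only, the raw read count. The deposited read counts were used as they stand, and 1 column of normalised reads was not used. The library protocol in the labels starts with 20 µg RNA, selects poly(A) RNA, uses 15 PCR cycles and reads 50 nt from 1 end. Versions, aligner and transcript release: not given in the sources used here. CleaveLand is named by paths in the tables. The authors computed the deposited score, ratio and p-value of each record. Sequences come from the alignment column of the tables.

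Genes are transcript IDs with the isoform number removed, and a site is a name, gene and target sequence. Lines left out of the tables, 3 in ZD9 and 20 in XZ153, are not analysed here. The tables list sites and not all reads, so depth is unknown. The listed reads sum to 34935 in ZD9. Shares have exact Clopper-Pearson 95% intervals and ratios exact conditional ones, which cover counting error only. No test was made with 1 library a group. Names chosen by rule were the 6 with most genes in XZ153, the 3 with most ZD9 reads and all with a supported site. Sites named were the supported ones of lowest p-value, the 6 with most ZD9 reads and the 6 shared ones with most reads. PC-3p-136646_68 is described for its site among these. Other names and sites, PC-3p-153_88304 and PC-3p-168642_33 among them, are given as extremes of a count or for a link to these, chosen after their values were seen. The functions were tested on simulated data. Python 3.11.15, pandas 2.3.3 and scipy 1.17.1 were used.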

Additional observations from a re-analysis of the deposited data

How the results depend on the processing

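Of 24 alternatives, 16 left a share or ratio inside its 95% interval, a median inside its quartiles or a count within 1.5 times. The ratio of ZD9 to XZ153 PC records, 1.96, was 1.58 by pairs of name and gene. Without the limit to common IDs it turned to 0.385, since fewer IDs are covered by ZD9. Supported pairs in category 0 alone numbered 0 in ZD9 and 3 in XZ153, against 1 and 8 in categories 0 to 2. A p-value limit of 0.01 left 1 in XZ153. The category 0 share in XZ153 was 3.92% at an Allen score of at most 7. The share of ZD9 records with values also in XZ153, 12.03%, was 22.1% by merged site and 41.9% at 3 or more reads. Leaving out the PC-3p-129407_83 group, and counting positions under any name, were chosen after seeing the data. No paired analysis was possible because there is 1 library per group. Unknown depth and the early end of the ZD9 list limit every comparison of counts.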
